A study of Homo sapiens with 22 samples.

Results

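The 9 genes described here write, copy, read and remove DNA methylation: DNMT1, UHRF1, DNMT3A, DNMT3B, TET1, TET2, TET3, MBD2 and MBD4. They were taken by symbol, and all 9 were found among the 59087 gene names of both RNA-Seq count tables. The cells were HUDEP-2, an immortalized human erythroid progenitor line derived from umbilical cord blood, grown in expansion medium (D0) or moved for 6 days to a medium in which they mature (D6). At each day the H2A.X experiment held 2 WT and 3 KO libraries, while 3 WT and 3 KO libraries made up the BAZ1B experiment, 22 in all. H2A.X is the histone variant encoded by H2AFX, and BAZ1B is the kinase that phosphorylates its C-terminal tyrosine. The KO cells were single-cell subclones carrying a homozygous CRISPR deletion, of the H2AFX coding sequence or of the region around the first exon of BAZ1B, so each KO library was 1 clone. All cells, WT included, were cultured with SCF, erythropoietin, dexamethasone and doxycycline during expansion. The methods describe WT subclones handled like the KO lines, but the labels do not tie a WT library to a subclone or culture, so p-values measure the spread between these libraries, which may be partly technical.

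DNMT3A and DNMT3B place methyl groups on unmethylated CpG sites. DNMT1 copies the pattern onto the new strand at replication, guided there by UHRF1, which binds hemimethylated DNA. TET1, TET2 and TET3 oxidize methylcytosine, which starts its removal, while MBD2 binds methylated CpG sites and recruits the NuRD complex, and MBD4 is a glycosylase that removes thymine left by deamination of methylcytosine. The erythroid genome loses methylation as erythroblasts divide and mature, and DNMT3A and TET2 are often mutated in clonal hematopoiesis.

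The promoters of DNMT3A and TET3 are shown because these genes were lower in BAZ1B KO cells. Each sequence is the 250 bases before a RefSeq transcript start in GRCh38.p14, written 5′ to 3′ on the strand of the gene, and capitals mark CpG dinucleotides. The DNMT3A window lies at chr2:25342591-25342840 on the minus strand, and the TET3 window at chr2:73984660-73984909 on the plus strand. Both end at the gene start of the GENCODE 44 annotation, and DNMT3A has 5 further RefSeq windows and TET3 has 1 more. Read counts per gene do not show which start was used.
DNMT3A: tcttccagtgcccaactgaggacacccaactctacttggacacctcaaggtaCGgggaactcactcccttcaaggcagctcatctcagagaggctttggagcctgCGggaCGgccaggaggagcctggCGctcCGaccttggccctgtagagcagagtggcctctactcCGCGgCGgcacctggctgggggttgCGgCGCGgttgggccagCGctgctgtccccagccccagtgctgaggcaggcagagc
TET3: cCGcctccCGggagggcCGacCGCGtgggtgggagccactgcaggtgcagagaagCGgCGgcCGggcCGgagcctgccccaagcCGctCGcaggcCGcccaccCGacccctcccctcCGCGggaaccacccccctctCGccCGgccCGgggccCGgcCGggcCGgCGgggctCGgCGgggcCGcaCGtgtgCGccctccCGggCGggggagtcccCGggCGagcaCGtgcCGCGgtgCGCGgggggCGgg
The DNMT3A window held 12 CpG and the TET3 window 37, against a median of 11 and a middle range of 3 to 23 over 34943 RefSeq windows of this length. Motifs of 3 factors active in erythroid or cycling cells were searched on both strands: AGATAA for GATA factors, CCNCACCC for KLF1 and TTTNNCGC for E2F. None of the 3 was present in either window. AGATAA was present in 9.19% of all windows, CCNCACCC in 16.7% and TTTNNCGC in 5.89%. Over the 20 windows of all 9 genes, some of which overlap, AGATAA was found in 0, CCNCACCC in 2 (DNMT3B and UHRF1) and TTTNNCGC in 2, both of UHRF1.

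In hg38, DNMT1 lies on chromosome 19 at 10133342 to 10231286 (minus strand, 41 exons in its canonical transcript) and UHRF1 on chromosome 19 at 4903080 to 4962154 (plus strand, 17 exons). DNMT3A lies on chromosome 2 at 25227855 to 25342590 (minus strand, 23 exons) and DNMT3B on chromosome 20 at 32762385 to 32809359 (plus strand, 23 exons). TET1 lies on chromosome 10 at 68560337 to 68694487 (plus strand, 12 exons), TET2 on chromosome 4 at 105145875 to 105279816 (plus strand, 11 exons) and TET3 on chromosome 2 at 73984910 to 74108176 (plus strand, 12 exons). MBD2 lies on chromosome 18 at 54151606 to 54224669 (minus strand, 7 exons) and MBD4 on chromosome 3 at 129430947 to 129440179 (minus strand, 8 exons). Their canonical transcripts run from 2394 bases for MBD4 to 12060 for TET3, with DNMT3A, TET2 and TET1 from 9421 to 9612. MBD4 lies whole within IFT122, a protein-coding gene on the opposite strand, TET2 overlaps TET2-AS1 over 6710 bases on the opposite strand, and DNMT1 overlaps S1PR2 over 9854 bases on the same strand. Whether reads were counted by strand is not given in the sources used here, so the counts of these pairs are uncertain.

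The libraries held 11910141 to 21013004 counts each in the H2A.X experiment and 33199408 to 41273244 in the BAZ1B experiment. The biological coefficient of variation was 0.239 in the former and 0.0865 in the latter, so smaller differences could be detected in the BAZ1B experiment. H2AFX was lower in H2A.X KO cells, with log2 fold changes of -1.499 at D0 and -1.52 at D6 (adjusted p = 0.0304 and 0.0233, edgeR), and BAZ1B was lower in BAZ1B KO cells, at -0.40 and -0.38 (adjusted p = 0.00415 and 0.00250). Counts per gene do not show whether the remaining reads fall outside the deleted parts, so these levels check the labels only in part. The H2A.X WT and KO libraries differed in their long transcripts. The median of transcripts over 5000 bases, relative to that of transcripts under 1500, was taken in each library against the mean of its own experiment. On the log2 scale it was between -1.36 and -0.30 in the 4 H2A.X WT libraries and 0.15 to 0.77 in the H2A.X KO libraries. In the BAZ1B libraries it was -0.08 to 0.07. Such values show a gap between the libraries of an experiment, not which of them were unusual. Levels cannot be compared between the experiments in this way. The H2A.X WT libraries labelled D6 differed little from those labelled D0 in their markers. Over the 10 erythroid genes the median change was 0.43 on the log2 scale, with sums of 10158 to 10444 CPM (counts per 1000000, by effective library size) at D0 and 11859.9 to 14443 CPM at D6, whereas in BAZ1B WT cells the median was 1.68 and all 10 were called higher, with sums of 6411 to 6527 CPM and 21546 to 23728 CPM. The mast cell and eosinophil markers summed to 104 to 139.8 CPM and 145 to 232 CPM in these H2A.X WT libraries, and fell in the other 3 backgrounds. The column headers mark 5 of the 6 H2A.X KO libraries as a repeat ("Redo"), all except replicate 3 at D6, and none of the WT libraries. The repeat and the H2A.X genotype therefore cannot be told apart, except through that library.

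Per length, DNMT1 had the highest mean of the 9 genes in every group. Levels here are CPM per kilobase of the canonical transcript, as mean ± SD. In BAZ1B WT cells at D0 (n = 3), the maintenance enzyme DNMT1 was at 109 ± 0.877, its guide UHRF1 at 21.0 ± 0.584 and the glycosylase MBD4 at 21.9 ± 0.593. The reader MBD2 was at 12.7 ± 0.255, TET3 at 9.31 ± 0.220 and TET2 at 3.58 ± 0.139, while the de novo enzymes were lower, with DNMT3A at 2.97 ± 0.00432 and DNMT3B at 0.401 ± 0.0401. MBD4 and UHRF1 overlapped in this order, and the other neighbours did not. At D6 in the same cells TET3 moved above MBD2, at 16.8 ± 0.477 against 13.5 ± 0.449, whereas in BAZ1B KO cells at D6 these genes overlapped, at 14.3 ± 0.988 and 14.05 ± 0.401.

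In the H2A.X experiment the order differed between WT and KO cells. In H2A.X WT cells at D0 (n = 2) DNMT1 was at 47.2 ± 22.5, which overlapped MBD4 at 32.8 ± 0.588, and TET2, at 1.16 ± 0.295, was below DNMT3A, at 2.39 ± 0.0156. In H2A.X KO cells at D0 (n = 3) DNMT1 was at 78.6 ± 1.005, well apart from MBD4 at 25.2 ± 1.119, while TET2 at 3.09 ± 0.0305 and DNMT3A at 2.84 ± 0.588 overlapped. DNMT3B was the lowest of the tested genes in all 8 groups.

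TET1 was at or near 0 throughout. It had 15 reads in the 10 H2A.X libraries together, with 0 in 4 of them, and 44 reads in the 12 BAZ1B libraries, with 0 in 1 and at most 7 in any. A count of 0 allows up to 3 reads, which is 0.140 to 0.306 CPM in the H2A.X and 0.0688 to 0.0927 CPM in the BAZ1B libraries (counting error only). TET1 failed the filter on low counts in both experiments, and the other 8 genes were tested.

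To find which of these genes differed without BAZ1B, the quasi-likelihood test of edgeR, which is two-sided, was applied to KO against WT cells within each day, and a gene was called at a Benjamini-Hochberg adjusted p below 0.05 over all genes tested. DNMT3A was lower in BAZ1B KO cells at both days. At D0 its normalised read counts (with library sizes brought to the mean of the experiment) were 1051, 1052 and 1054 in the WT libraries and 793, 845 and 792 in the KO libraries. All 3 KO clones lay below all WT libraries. The log2 fold change was -0.38 ± 0.0545 (SE, adjusted p = 0.00157), which is 23.0% less. At D6 the counts of DNMT3A were 931, 988 and 1016 in WT cells and 723, 708 and 758 in KO cells, again with no overlap. The log2 fold change there was -0.42 ± 0.0553 (SE, adjusted p = 0.000335), which is 25.4% less. The KO effect on DNMT3A changed by -0.045 ± 0.0776 (SE, adjusted p = 0.832) from D0 to D6. The calls of DNMT3A held in 7 of 7 other settings and with each of 6 libraries left out, with adjusted p of at most 0.0126 at D0 and 0.00355 at D6 (edgeR or DESeq2).

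TET3, the TET gene with the most reads here, was lower in BAZ1B KO cells at D6. At D0 its normalised counts were 4139.9, 4331 and 4187 in WT and 4199, 4164 and 4003 in KO libraries. The groups overlapped, with a log2 difference of -0.034 ± 0.0475 (SE, adjusted p = 0.805). At D6 TET3 counted 7515, 7504 and 7884 in WT and 6237, 6177 and 6980.4 in KO libraries, so that every KO library was below the lowest WT library. The log2 fold change was -0.24 ± 0.0470 (SE, adjusted p = 0.00483), which is 15.3% less, and the call held in 7 of 7 other settings and 6 of 6 fits with 1 library left out, with adjusted p up to 0.0255. The KO effect on TET3 changed by -0.21 ± 0.0668 (SE, adjusted p = 0.140) from D0 to D6, which did not pass. It passed in 2 of 6 other settings, which corrected for transcript length and GC content (-0.24, adjusted p = 0.0482 without and -0.24, adjusted p = 0.0392 with a replicate block), and without KO replicate 3 at D6 (-0.27, adjusted p = 0.0345), the KO library with the highest TET3 count at D6.

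DNMT3A was thus 1 of 8 tested genes called at D0, where 3.88% of all tested genes were called and 2.64% were called lower. At D6 DNMT3A and TET3 were 2 of 8, both lower, where 12.8% of all were called and 5.97% were called lower. The median log2 fold change of the 8 was -0.06 at D0 and -0.0073 at D6, beside 0.0026 and -0.0037 over all genes tested. DNMT1 had the most reads of the 9 genes. It counted 21471 to 21815 in WT and 21125 to 22056 in KO libraries at D0, with a log2 difference of -0.00066 ± 0.0320, and 0.017 ± 0.0320 at D6. TET2 counted 1325, 1313 and 1233 in WT and 977, 1283 and 1157 in KO libraries at D0, overlapping through KO replicate 2, and its log2 fold change of -0.18 ± 0.0825 (SE, adjusted p = 0.322) was not called. DNMT3B, at 58.5, 71.5 and 66.1 in WT and 67.0, 33.9 and 33.2 in KO libraries at D0, had -0.55 ± 0.279 (SE, adjusted p = 0.377), and -0.48 ± 0.288 (SE, adjusted p = 0.325) at D6. KO replicate 1 was the only D0 clone with a DNMT3B count in the WT range, and without it the value was -0.96 (adjusted p = 0.0271). UHRF1, MBD2 and MBD4 had log2 fold changes between -0.088 and 0.061 at both days, none of them called. MBD2 in KO cells at D6 lay above WT cells without overlap, at 0.060 ± 0.0382 (SE, adjusted p = 0.353).

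**Figure D1:**
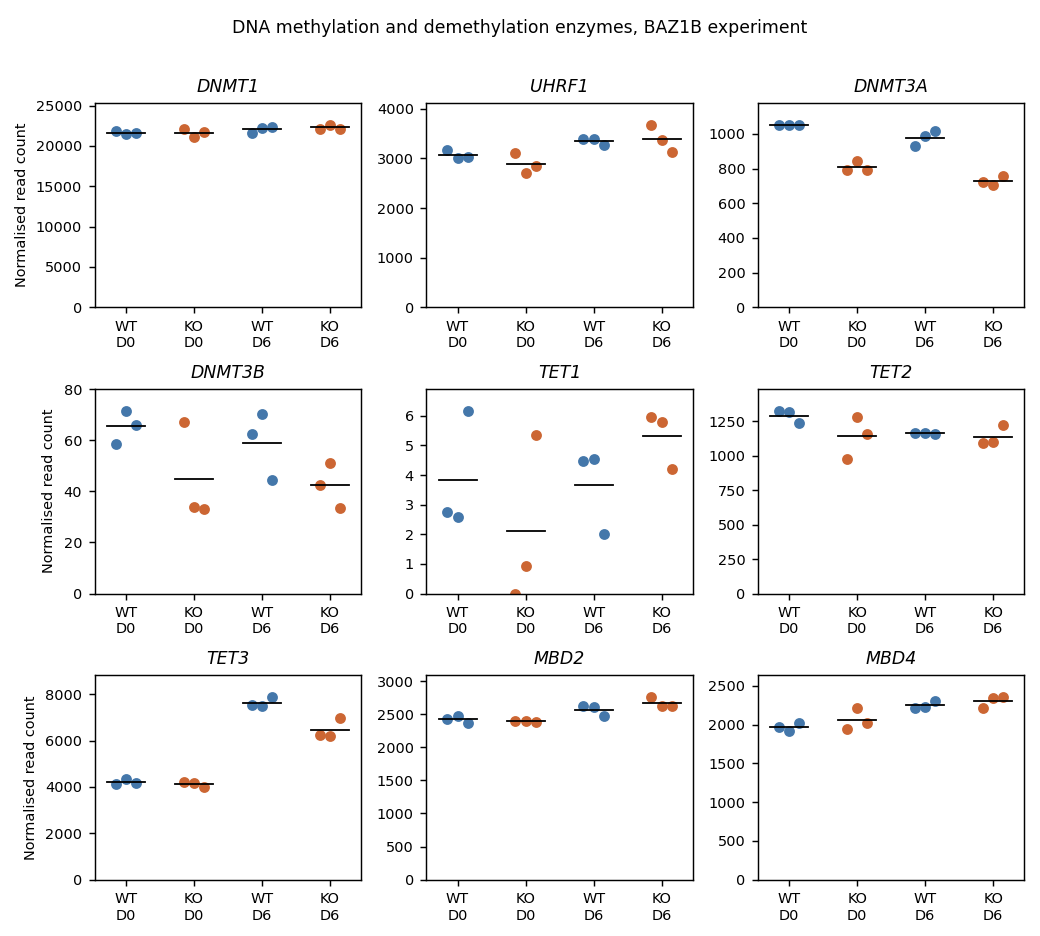
Normalised read counts of the 9 genes in the BAZ1B experiment (y axis, linear from 0, own scale per panel) in WT (blue) and KO (orange) libraries at D0 and D6, each point 1 library and each line the mean of 3. DNMT3A is lower in the KO libraries at both days (792 to 845 against 1051 to 1054 at D0), TET3 is higher at D6 than at D0 in both genotypes, and TET1 stays at a few reads.

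Marker genes were read beside these results. At D6 the 10 erythroid genes summed to 19199.7 to 22803 CPM in KO and 21546 to 23728 CPM in WT libraries, and 2 of them were called lower. The 6 megakaryocyte markers summed to 1.42 to 4.77 CPM and 8.32 to 10.4 CPM at D6, with GP1BA, PF4 and PPBP at 0 reads in all 6 libraries. Mast cell and eosinophil markers summed to 12.2 to 38.4 CPM and 30.0 to 40.8 CPM at D6, with a median log2 fold change of -0.72 over the 6 tested, and to 453 to 619.6 CPM and 467 to 508 CPM at D0, with 2 of 6 called higher. Of 14 cell cycle genes, 1 was called lower at D0, and 2 higher and 3 lower at D6. Their part in the DNMT3A and TET3 results was not tested. In bulk RNA, fewer cells of a type and less RNA per cell cannot be told apart.

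Of 41 further genes of DNA methylation and its removal, 36 were tested in the BAZ1B experiment. Over all genes 3.88% were called at D0 and 12.8% at D6. At D0, 1 was called, CXXC1, a binder of unmethylated CpG in the SET1 complex, at 0.22 ± 0.0428 (SE, adjusted p = 0.0127). At D6, 4 were called higher and 1 lower. The highest was IDH1, a cytosolic source of the 2-oxoglutarate that TET enzymes need, at 0.63 ± 0.135 (SE, adjusted p = 0.00849), followed by KDM2B, which binds CpG islands, at 0.27 ± 0.0551 (SE, adjusted p = 0.00565). UNG, a uracil glycosylase, was at 0.21 ± 0.0482 (SE, adjusted p = 0.0127). MBD6, a relative of the methyl-CpG binders, was lower, at -0.21 ± 0.0395 (SE, adjusted p = 0.00333). The median of the 36 was 0.0057 at D0 and 0.07 at D6.

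To see which of the 9 genes moved with maturation, D6 was compared with D0 within each genotype. These comparisons share their libraries with those of KO and WT. TET3 rose in BAZ1B WT and KO cells. In WT cells it went from 4139.9 to 4331 normalised counts to 7504 to 7884, with a log2 difference of 0.86 ± 0.0474 (SE, adjusted p = 4.64e-09), which is 80.9% more. In KO cells it went from 4003 to 4199 to 6177 to 6980.4, at 0.65 ± 0.0475 (SE, adjusted p = 6.83e-08), which is 56.8% more. The days did not overlap in either genotype. MBD4 rose as well, from 1975, 1919.7 and 2026 to 2221, 2234 and 2303 in WT cells, at 0.19 ± 0.0503 (SE, adjusted p = 0.00438), and at 0.16 ± 0.0503 (SE, adjusted p = 0.0116) in KO cells, without overlap of the days.

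In BAZ1B KO cells UHRF1 rose at 0.24 ± 0.0600 (SE, adjusted p = 0.00360) and MBD2 at 0.16 ± 0.0381 (SE, adjusted p = 0.00245). In WT cells UHRF1 was at 0.13 ± 0.0597 (SE, adjusted p = 0.0752), called in 4 of 7 other settings, and MBD2 at 0.083 ± 0.0381 (SE, adjusted p = 0.0687), and without WT replicate 3 at D6 MBD2 was called at 0.12 (adjusted p = 0.0160). DNMT3A fell in KO cells, at -0.15 ± 0.0555 (SE, adjusted p = 0.0283), and was at -0.11 ± 0.0542 (SE, adjusted p = 0.101) in WT cells. The DNMT3A call in KO cells was lost in 5 of 7 other settings, among them DESeq2 (-0.15, adjusted p = 0.0600) and the correction for length and GC content (-0.046, adjusted p = 0.441). It was lost too without KO replicate 2 at D0 (-0.12, adjusted p = 0.119), KO replicate 1 at D6 (-0.14, adjusted p = 0.0684) or KO replicate 2 at D6 (-0.13, adjusted p = 0.0799). DNMT1 was at 0.028 ± 0.0320 in WT and 0.045 ± 0.0320 in KO cells, and TET2 at -0.15 ± 0.0827 and -0.0048 ± 0.0833, none called.

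In WT cells 2 of the 8 were called, both higher, where 68.9% of all genes were called and 33.5% were called higher. In KO cells 5 of the 8 were called, 4 higher and 1 lower, where 67.7% of all were called, 33.2% higher and 34.5% lower. The change from D0 to D6 differed between KO and WT cells for 0 of the 8 by edgeR (1 at an unadjusted p under 0.05, 0 by DESeq2), where 2.47% of all genes were called. Over the same days all 10 erythroid genes and 12 of 14 cell cycle genes were called higher in both genotypes, and 6 of 6 tested mast cell and eosinophil markers lower. Their part in the TET3, MBD4, UHRF1 and MBD2 results was not tested.

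The further genes of the pathway moved in both directions between the days, with 12 of 36 called higher and 15 lower in WT cells, and 13 higher and 12 lower in KO cells, where 68.9% and 67.7% of all genes were called. In WT cells the highest was GADD45A, a stress-response gene linked to active demethylation, at 1.88 ± 0.0746 (SE, adjusted p = 3.40e-10). IDH2, the mitochondrial source of 2-oxoglutarate, was at 1.20 ± 0.109 (SE, adjusted p = 5.15e-07) and ZBTB4, a reader of methylated DNA, at 0.74 ± 0.0633 (SE, adjusted p = 2.86e-07). The lowest was ZBTB38, another reader of methylated DNA, at -1.47 ± 0.177 (SE, adjusted p = 7.65e-06), with the glycosylase NEIL1 at -0.97 ± 0.313 (SE, adjusted p = 0.0140) and KDM2B at -0.77 ± 0.0545 (SE, adjusted p = 5.00e-08). In KO cells the higher genes were led by GADD45A at 1.85 ± 0.0760, IDH2 at 1.38 ± 0.109 and ZBTB4 at 0.93 ± 0.0636. The lower genes there were led by ZBTB38 at -1.098 ± 0.179, GADD45B, of the GADD45A family, at -0.88 ± 0.213 and LIG3, a ligase of base excision repair, at -0.64 ± 0.0614.

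In the H2A.X experiment, KO cells had higher counts of DNMT1, DNMT3B, TET2 and TET3 than WT cells and lower counts of MBD2. Relative to short transcripts, the WT libraries also had fewer reads on long ones than the KO libraries. A correction for length and GC content brought the first 4 genes closer to 0 but not MBD2. It was fitted to these same libraries, so it would also remove a KO effect that goes with length. A difference between libraries and a KO effect therefore cannot be told apart here. At D0, TET2 counted 230.5 and 160.3 in the WT and 526, 521 and 516 in the KO libraries. The KO libraries were nearly alike and far above both WT libraries, with a log2 difference of 1.41 ± 0.321 (SE, adjusted p = 0.0113). Corrected for transcript length and GC content it was 0.54 ± 0.195 (SE, adjusted p = 0.0754). MBD2 counted 1286 and 1645 in WT and 953, 818 and 1012 in KO libraries, without overlap. Its log2 fold change was -0.66 ± 0.214 (SE, adjusted p = 0.0368), and -1.097 ± 0.244 (SE, adjusted p = 0.0157) after the correction. MBD4 counted 1364 and 1399 in WT and 1022, 1042 and 1112 in KO libraries, also without overlap, at -0.38 ± 0.131 (SE, adjusted p = 0.0443) before and -0.26 (adjusted p = 0.123) after the correction. These were 3 of 8 genes called, 1 higher and 2 lower, where 35.1% of all genes were called, 18.4% higher and 16.7% lower. All 8 tested genes had KO and WT ranges without overlap at D0, but the share over all genes was not counted. This is therefore no result about the 8. DNMT1 at 0.74 ± 0.284 (SE, adjusted p = 0.0672), DNMT3B at 1.67 ± 0.625 (SE, adjusted p = 0.0606) and TET3 at 0.84 ± 0.446 (SE, adjusted p = 0.162) did not pass. In other settings DNMT3B was called in 5 of 8, DNMT1 in 3 and TET3 in 2, among them DNMT3B (1.72, adjusted p = 0.0123) and DNMT1 (0.84, adjusted p = 0.0151) with a replicate block. That block joined WT and KO libraries by number, a pairing that the labels do not give. With it 3 of the 8 were called higher and 1 lower, where 2917 of 13236 genes were called higher and 2573 lower. Without WT replicate 1 DNMT1 was called (1.33, adjusted p = 0.00922). DNMT3A turned from 0.25 to -0.54 (adjusted p = 0.0870) with the correction.

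At D6, TET3 counted 779 and 755 in the WT and 3249.7, 5516 and 1302 in the KO libraries. Every KO library was above the WT libraries, but the clones were far apart, and the lowest was replicate 3, the KO library whose header does not mark a repeat. The log2 fold change of TET3 was 2.13 ± 0.471 (SE, adjusted p = 0.00692), and 1.22 ± 0.372 (SE, adjusted p = 0.0448) after the correction. TET2 counted 185 and 147 in WT and 611, 579 and 278 in KO libraries, with replicate 3 again the lowest. It was at 1.55 ± 0.328 (SE, adjusted p = 0.00594) before and 0.52 ± 0.199 (SE, adjusted p = 0.0887) after the correction. DNMT1 counted 5252 and 3252 in WT and 9069.6, 7777 and 7400.4 in KO libraries, without overlap, at 0.93 ± 0.286 (SE, adjusted p = 0.0254) before and 0.55 (adjusted p = 0.109) after. UHRF1 counted 602 and 463 and 713, 800.2 and 917, without overlap, at 0.60 ± 0.168 (SE, adjusted p = 0.0169) before and 0.50 (adjusted p = 0.0461) after.

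MBD2 was the called gene that was lower in H2A.X KO cells at D6, with 1628 and 1648 in WT and 1026, 817 and 1381 in KO libraries, at -0.61 ± 0.214 (SE, adjusted p = 0.0420) before and -1.14 (adjusted p = 0.0156) after the correction. DNMT3B rested on 2 to 68 reads a library at D6 and was at 2.09 ± 0.700 (SE, adjusted p = 0.0346) before and 1.85 (adjusted p = 0.0813) after. DNMT3A was at 0.34 ± 0.257 (SE, adjusted p = 0.308) before and turned to -0.41 (adjusted p = 0.178) after, and MBD4 was at -0.013 ± 0.132 (SE, adjusted p = 0.947). In all, 6 of 8 were called at D6, 5 higher and 1 lower, where 43.1% of all genes were called, 22.2% higher and 20.9% lower. With the correction 3 of 8 were called: TET3, UHRF1 and MBD2. In that fit 1290 of 12017 genes were called higher and 1168 lower. The median of the 8 was 0.49 at D0 and 0.76 at D6, beside 0.01 and -0.0062 over all genes tested.

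**Figure D2:**
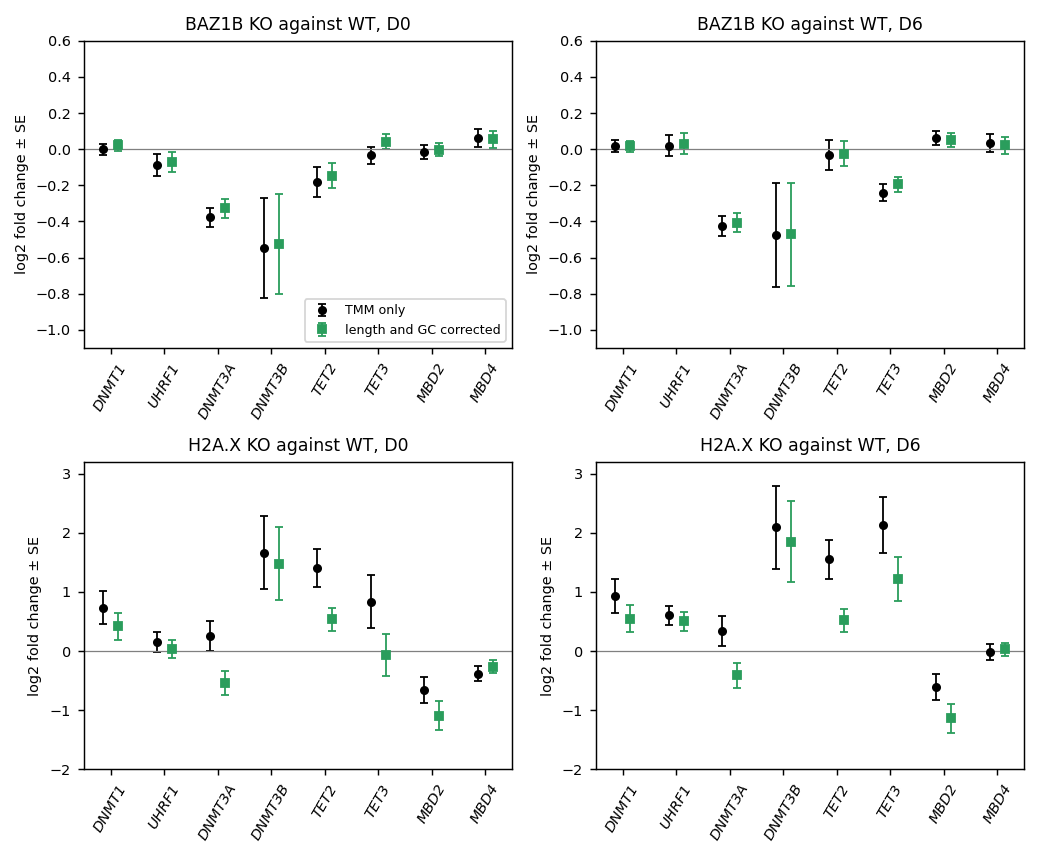
Log2 fold changes of KO against WT (y axis, points with bars of 1 SE) for the 8 tested genes at D0 and D6 in the BAZ1B (top) and H2A.X (bottom) experiments, as fitted (black circles) and with transcript length and GC content corrected (green squares). The y scales differ between the experiments. In the H2A.X experiment the correction moves TET2 at D0 from 1.41 to 0.54 and turns DNMT3A from 0.25 to -0.54, whereas DNMT3A in BAZ1B KO cells at D6 is at -0.42 and -0.41.

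Across genes, the log2 fold change of H2A.X KO against WT went with transcript length, with a Spearman coefficient of 0.544 at D0 and 0.601 at D6 over 12017 genes, against -0.0301 and 0.0524 over 12408 genes in the BAZ1B experiment. Genes are not independent replicates, and these values are descriptions. Of 2964 genes with a canonical transcript of at least 5000 bases, 47.4% were called higher in H2A.X KO cells at D0 and 54.8% at D6. DNMT1, DNMT3A, MBD2 and the TET genes have transcripts of that length, and of these MBD2 was lower in KO cells.

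In H2A.X KO against WT, the calls of these genes were lost without the WT library of that day with the replicate number 2. Most calls over all genes were lost there too, so the loss was not particular to these genes. Without WT replicate 2 at D0 none of the 3 calls at D0 was kept by edgeR, with TET2 at 1.18 (adjusted p = 0.137) and MBD2 at -0.47 (adjusted p = 0.280). Without WT replicate 2 at D6 none of the 6 calls at D6 was kept, with TET3 at 2.14 (adjusted p = 0.0754), TET2 at 1.43 (adjusted p = 0.0739) and MBD2 at -0.57 (adjusted p = 0.183). In these fits 1 WT library remained at that day and was assumed to vary like the other groups. In a fit added after seeing the data, without both WT libraries with the replicate number 2, DNMT1 at D6 was at 0.67. MBD2 and MBD4 at D0 were also lost without any 1 of the 3 KO clones, and MBD4 without WT replicate 1, with adjusted p from 0.0653 to 0.128 for MBD2 and MBD4 together. At D6 DNMT1, DNMT3B and MBD2 were lost without KO replicate 1, and MBD2 also without KO replicate 2 or WT replicate 1. With the correction and without KO replicate 3 at D6, another fit added after seeing the data, TET2 was at 0.72 (adjusted p = 0.00672), TET3 at 1.56 (adjusted p = 0.00297), UHRF1 at 0.43 (adjusted p = 0.0485) and MBD2 at -1.40 (adjusted p = 0.00171).

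**Figure D3:**
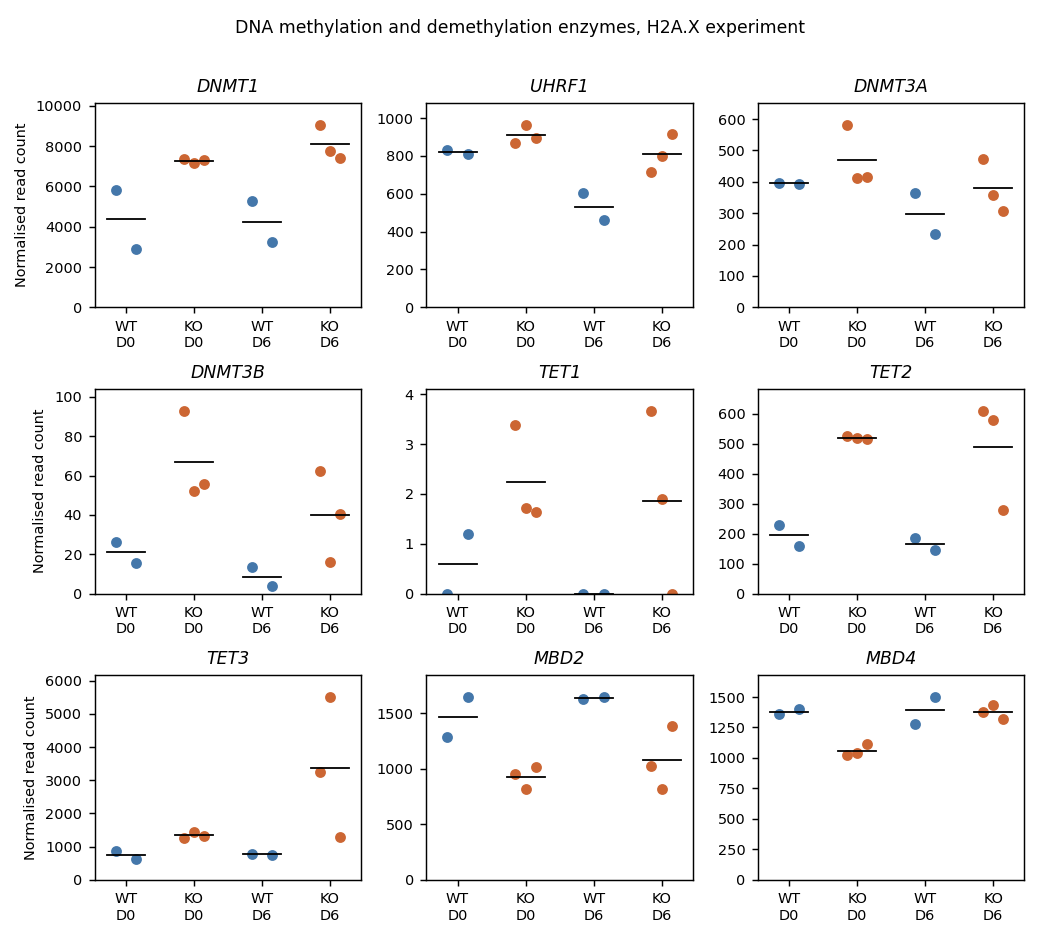
Normalised read counts of the 9 genes in the H2A.X experiment (y axis, linear from 0, own scale per panel) in WT (blue, 2 libraries) and KO (orange, 3 libraries) cells at D0 and D6, with a line at each mean. TET3 spreads from 1302 to 5516 in the KO libraries at D6 and is at 755 to 779 in the WT libraries, and MBD2 is lower in KO than in WT libraries at both days.

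**Figure D4:**
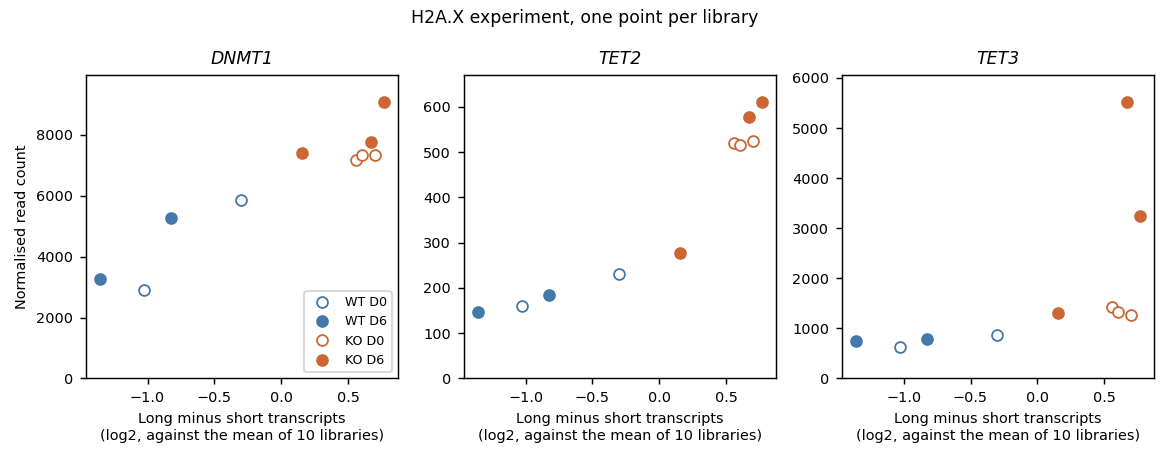
Normalised read counts of DNMT1, TET2 and TET3 (y axis, linear from 0) against the level of long relative to short transcripts (x axis, log2, relative to the mean of the 10 libraries) in the H2A.X experiment, 1 point per library, WT blue, KO orange, D0 open and D6 filled. WT libraries lie at -1.36 to -0.30 and KO libraries at 0.15 to 0.77 on the x axis. The KO library at 0.15, replicate 3 at D6, has the lowest TET2 count of the KO libraries, 278. It is not the lowest of them for DNMT1 (7400 against 7176 in KO replicate 2 at D0) or TET3 (1302 against 1269 in KO replicate 1 at D0).

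Between D0 and D6, TET3 and MBD4 rose in H2A.X KO cells. TET3 went from 1269, 1432 and 1326 in KO replicates 1, 2 and 3 at D0 to 3249.7, 5516 and 1302 at D6, so that replicates 1 and 2 gained reads and replicate 3 did not. The log2 fold change of TET3 was 1.32 ± 0.392 (SE, adjusted p = 0.0279), and 1.38 (adjusted p = 0.00833) with the correction. MBD4 went from 1022, 1042 and 1112 to 1379, 1436 and 1318, higher in each clone, at 0.38 ± 0.118 (SE, adjusted p = 0.0339), and 0.31 (adjusted p = 0.0381) with the correction. With the replicate block added to the correction TET3 was at 1.24 (adjusted p = 0.00409) and the MBD4 call was lost, at 0.31 (adjusted p = 0.0561). These were 2 of 8 called, both higher, where 30.9% of all genes were called and 14.8% were called higher. With 1 of 6 libraries left out TET3 was called in 2 fits and MBD4 in 1. TET3 kept its call without KO replicate 1 or 3 at D6 and fell to 0.76 (adjusted p = 0.112) without replicate 2. MBD4 kept its call without KO replicate 3 at D6 (0.43, adjusted p = 0.0194).

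In H2A.X WT cells 0 of the 8 were called between the days by edgeR (1 at an unadjusted p under 0.05, 1 by DESeq2), where 2% of all genes were called. UHRF1 was the gene with the unadjusted p under 0.05, at 829 and 810.0 normalised counts at D0 and 602 and 463 at D6, a log2 difference of -0.62 ± 0.182 (SE, adjusted p = 0.103). TET3 was at 0.031 ± 0.480 (SE, adjusted p = 0.982) there. A change of the KO effect between the days was called for 0 of 8 by edgeR (0 at an unadjusted p under 0.05, 0 by DESeq2), where 1.34% of all genes were called. For TET3 it was 1.29 ± 0.618 (SE, adjusted p = 0.361), and without KO replicate 3 at D6 it was 1.71 (adjusted p = 0.0201).

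The mast cell and eosinophil markers summed to 209 to 419 CPM in H2A.X KO cells at D0 and 3.08 to 13.5 CPM at D6, with CLC, EPX, HDC and PRG3 at 0 reads in all 3 libraries at D6. The erythroid genes summed to 7289.6 to 9503 CPM and 16639 to 31729 CPM, and the lowest D6 sum was that of replicate 3, which also had the lowest TET3 count at D6. At D6 against WT, 3 erythroid genes were called higher and 2 lower, and 6 of 14 cell cycle genes higher and 1 lower. Of 5 tested mast cell and eosinophil markers 2 were called lower at D6, with a median of -2.17 and sums of 3.08 to 13.5 CPM in KO and 145 to 232 CPM in WT libraries. At D0 against WT, 3 of 5 tested mast cell and eosinophil markers were called higher, with sums of 209 to 419 CPM in KO and 104 to 139.8 CPM in WT libraries, and 7 of 10 erythroid genes lower. Of 6 megakaryocyte markers 1 was tested, and it was called higher in KO cells at D0. Of 6 neutrophil and monocyte markers 2 were tested, with 1 called higher in H2A.X KO cells at D0 and medians of 0.020 at D0 and -0.84 at D6 in BAZ1B KO against WT cells. Their part in the TET3, TET2, UHRF1, MBD2 and MBD4 results was not tested.

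**Figure D5:**
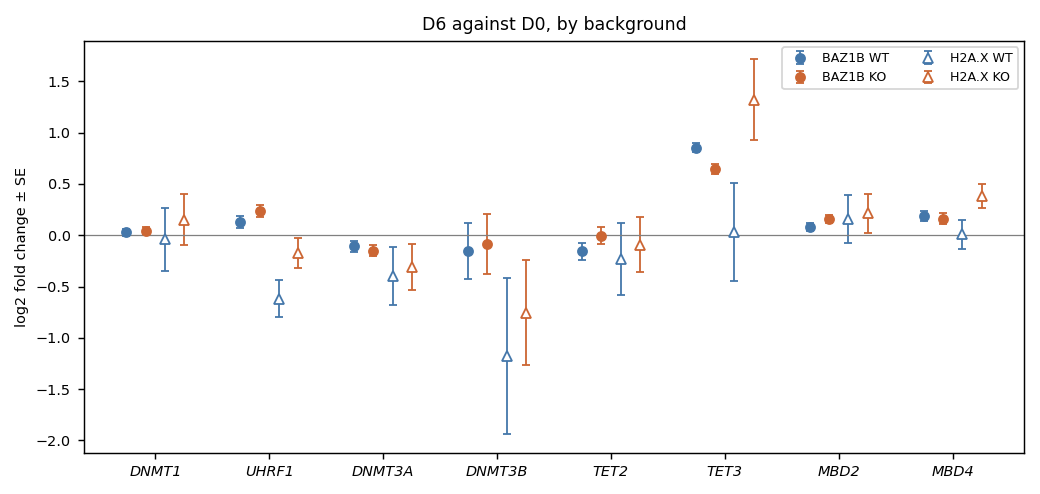
Log2 fold changes of D6 against D0 (y axis, points with bars of 1 SE) for the 8 tested genes in WT (blue) and KO (orange) cells of the BAZ1B (filled circles) and H2A.X (open triangles) experiments. TET3 is at 0.86 and 0.65 in BAZ1B WT and KO cells and at 1.32 in H2A.X KO cells, against 0.031 in H2A.X WT cells.

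Of the 41 further pathway genes, 37 were tested in the H2A.X experiment. At D0, 5 were called higher and 5 lower in KO cells, where 35.1% of all genes were called. KMT2A, a histone methyltransferase with a CpG-binding domain, was at 2.69 ± 0.470 (SE, adjusted p = 0.00608), ZBTB38 at 2.03 ± 0.641 and ZBTB33, the reader of methylated DNA known as Kaiso, at 0.997 ± 0.198. GADD45A was at -1.85 ± 0.258, MBD3, a NuRD subunit, at -1.01 ± 0.248 and PCNA, the replication clamp, at -0.77 ± 0.164. At D6, 8 were called higher and 7 lower, against 43.1% of all genes, led by KMT2A at 2.25 ± 0.461 and ZBTB4 at 1.27 ± 0.245, and on the lower side by GADD45G at -3.91 ± 0.979, GADD45B at -2.84 ± 0.484 and MBD3 at -1.15 ± 0.248. KMT2A has the longest transcript of the list, 16600 bases. Among the lower genes named, GADD45A, PCNA, GADD45G and GADD45B have short ones of 1066 to 1371 bases, and MBD3 has 5678. The part of transcript length in these values was not tested. From D0 to D6 in KO cells 6 were called higher and 4 lower, against 30.9% of all genes, with GADD45A at 2.46 ± 0.243, ZBTB4 at 1.25 ± 0.212 and IDH2 at 0.77 ± 0.171, and with ZBTB38 at -2.07 ± 0.548 and LIG3 at -0.72 ± 0.151.

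The study's own cutoffs for a differentially expressed gene are a p-value below 0.001, taken here as unadjusted, and a log2 fold change beyond 1.5 in size. By edgeR TET2 in H2A.X KO against WT at D6 met both, as 1 of 8 genes, where 5.53% of all genes did, and TET3 there had a larger change with an unadjusted p of 0.00104. By DESeq2 both TET2 and TET3 met them. In the other 9 comparisons 0 of the 8 met both cutoffs by edgeR or DESeq2, while DNMT3B in H2A.X KO against WT at D0 had that size with an unadjusted p of 0.0230 by edgeR. Over all genes, 3.88% met them at D0 between H2A.X KO and WT, 1.44% in the difference of these effects, 1.18% between the days in H2A.X WT and 7.28% in H2A.X KO cells. In the BAZ1B experiment the shares were 1.09% at D0, 1.27% at D6, 0.36% for the difference of the effects, 12.3% between the days in WT and 12.2% in KO cells.

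The genes most like each member were sought among 12870 genes tested in both experiments, by Pearson's r of log2 CPM over the 22 libraries after subtracting the mean of each experiment. The libraries share depth, day, genotype and, in the H2A.X experiment, the difference in long transcripts, so r is a description. TET2 was nearest to ASH1L and DCP1A (r of 0.988 for both) and TET3 to EPB41 and NFIX (r of 0.978 for both). DNMT1 was nearest to AC069499.1 (r of 0.964) and EDC4 (r of 0.962), MBD2 to HAUS1 (r of 0.969) and MRPL50 (r of 0.947), and MBD4 to ATF5 (r of 0.932) and ISCA1 (r of 0.920). DNMT3B was nearest to BMS1 (r of 0.932) and TRIM14 (r of 0.920), UHRF1 to BRD3OS (r of 0.913) and U2SURP (r of 0.907) and DNMT3A to TMCO4 (r of 0.850) and SBF2 (r of 0.843), the lowest of the 8.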

How the data were processed

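Bulk RNA-Seq libraries of HUDEP-2 cells were analysed from raw read counts per gene as deposited by the authors, 1 table per experiment. The submitters' processing notes name STAR 2.7.0f, Subread 1.6.4 (featureCounts) and DESeq2 1.22.1 with hg38, and the study's methods name fastp. The stated library kit and read length differ between labels and methods, and strand handling is not given in the sources used here. Counts were tested in R 4.3.3 with edgeR 4.0.16 (TMM, filterByExpr with a minimum of 10 and a total of 15, quasi-likelihood test), 1 coefficient per genotype and day, over 13236 tested genes (H2A.X experiment) and 13879 (BAZ1B experiment). DESeq2 1.42.0, other scalings, no filter, a length and GC correction (splines with 5 degrees of freedom), a replicate block and left-out libraries were alternatives. The code was tested on simulated data. Gene lengths came from GENCODE 44, matched for 36434 names directly and 759 by older symbols, with 308 ambiguous and 21586 unmatched. Same-numbered KO libraries deviated together between the days (correlations 0.253 to 0.570 in H2A.X, 0.146 to 0.532 in BAZ1B), so numbers were taken to pair the KO clones. H2A.X WT libraries gave 0.639, but 2 pairs yield a single value, so these were not known to be paired, nor were the other groups. The main fits used no pairing. The replicate block assumed it for all libraries by number. In KO against WT it joined KO and WT libraries, and otherwise it joined the days within each genotype.

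The members and the lists of markers and pathway genes were chosen with earlier results of these data known. Named pathway genes are the 3 called genes that changed most in each direction, and the 2 nearest patterns per member. A pathway gene that this rule names in the H2A.X experiment is not reported here.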

Additional observations from a re-analysis of the deposited data

How the results depend on the processing

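DNMT3A at both days and TET3 at D6 kept their direction and their calls between BAZ1B KO and WT cells under every alternative run, as did the day calls of TET3 and MBD4 in both BAZ1B genotypes and of UHRF1 and MBD2 in BAZ1B KO cells. The H2A.X calls did not. Few reads limit DNMT3B and TET1 in both experiments. Where a value below moved, the cause was not tested, except that fits on 2 groups or without a library rest on fewer samples.

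Of the 8 tested genes, 5 were called between H2A.X KO and WT at D0 with DESeq2, without the filter on low counts and with only the 2 groups compared. Over all genes, higher and lower, these settings called 2759 and 2312 of 14446, 2708 and 2233 of 25504, and 3127 and 2853 of 12599. With the length and GC correction 1 of the 8 was called, where 1302 and 1242 of 12017 genes were. At D6 the number called of the 8 was 3 with the correction and with only the 2 groups. Over all genes, higher and lower, these called 1290 and 1168 of 12017, and 2076 and 1655 of 12411. DESeq2 called 1 between the days in H2A.X WT cells, where 437 and 610 of 12146 genes were called. The difference of the H2A.X effects had 1 call without the filter, where 456 and 551 of 25504 genes were called. Between the days in H2A.X KO cells 1 was called without the filter, with block and correction together and with only the 2 groups. Over all genes, higher and lower, these settings called 2136 and 2397 of 25504, 2408 and 2846 of 12017, and 1926 and 1950 of 12316. In the BAZ1B experiment the difference of the effects had 1 call with the correction, alone or with the block, and the days in WT cells had 5 with the correction, 4 with block and correction and 4 with only the 2 groups.

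The replicate numbers were taken to pair the days in both KO lines. Their correlations, 0.146 for BAZ1B KO replicate 3, overlapped those of libraries not known to be paired, such as 0.245 for BAZ1B WT replicate 1. In these KO lines the block alone changed no call of the 8, and added to the correction it took the MBD4 call in H2A.X KO cells (0.31, adjusted p = 0.0561). The H2A.X WT libraries correlated at 0.639 between the days, a single value from 2 pairs, so pairing was not known for these or for the other groups. The block fits assumed it all the same, and joined KO and WT libraries by number in KO against WT. At D0 in H2A.X 4 of 8 were called with the block, where 2917 of 13236 genes were called higher and 2573 lower. With the block, BAZ1B WT cells had UHRF1 called between the days (0.13, adjusted p = 0.0199), and signs turned for DNMT1 between the days in H2A.X WT cells (0.0041) and TET2 in BAZ1B KO cells (0.0017). Signs also turned as follows, on the log2 scale. With DESeq2, MBD4 in H2A.X at D6 was 0.036 and in H2A.X WT cells between the days -0.017, and DNMT1 in BAZ1B at D0 was 0.00084. Without the filter, these values of MBD4 were 0.041 and -0.042, TET3 between the days in H2A.X WT cells was -0.015 and TET2 in BAZ1B KO cells 0.0047. With upper-quartile scaling, DNMT1 in BAZ1B was 0.0082 at D0, -0.0047 at D6 and -0.013 for the difference, and UHRF1 at D6 -0.00052. With only the 2 groups, MBD4 in H2A.X at D6 was 0.024 and DNMT1 in BAZ1B at D0 0.0033.

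With the length and GC correction, and then with the block added, DNMT3A in H2A.X was -0.54 and -0.53 at D0, and -0.41 and -0.37 at D6. MBD4 at D6 was 0.028 and 0.033, TET3 at D0 -0.065 with the correction, and UHRF1 at D0 -0.0066 with both. The difference of the effects was -0.017 and -0.037 for TET2 and -0.039 and -0.10 for MBD2, and DNMT1 in H2A.X WT cells was 0.063 and 0.078 between the days. In BAZ1B, DNMT1 at D0 was 0.021 and 0.021 and its difference -0.0054 and -0.0052, TET3 at D0 0.042 and 0.043, DNMT3A between the days in WT 0.033 and 0.033, and TET2 in KO 0.11 and 0.11. In fits added after seeing the data, without both libraries of WT number 2, MBD4 at D6 was 0.15, the difference of the effects -0.15 for DNMT3A and -0.093 for MBD2, and the day values in WT cells -0.17 for TET3 and -0.12 for MBD4. With the correction and no KO library 3 at D6, DNMT3A was -0.39 and MBD4 0.10.

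With 1 KO library left out at a time, edgeR called 1 of the 8 in H2A.X at D0 in every fit. At D6 it called 3 to 6. Over all genes, higher and lower, D0 fits called 1481 and 1069 of 13053, 1649 and 1275 of 13062, and 1563 and 1151 of 13069. The D6 fits called 2411 and 2109 of 13098, 2500 and 2212 of 13088, and 3444 and 3212 of 13196. For the difference 0 to 1 was called, and 0 to 2 between the days in KO cells. The highest counts of these came without KO replicate 3 at D6. There 479 and 372 of 13196 genes were called for the difference, and 2444 and 2427 between the days. Counts are left out for fits without an H2A.X WT library, where 1 remained at that day. In BAZ1B, with any 1 library left out, 1 to 2 were called at D0 and 0 to 1 for the difference. The 2 came without KO replicate 1 at D0, where 588 and 735 of 14146 genes were called. The other D0 fits called 78 to 179 genes higher and 178 to 355 lower. The 1 came without KO replicate 3 at D6, where 133 and 78 of 14156 genes were called. The other fits of the difference called 78 to 477 genes higher and 41 to 288 lower. With any library left out, values that changed sign ranged over the following. In H2A.X, the difference of the effects was -0.39 to 0.62 for DNMT1, -0.15 to 0.46 for DNMT3A, -0.10 to 1.78 for DNMT3B, -0.14 to 0.46 for TET2 and -0.13 to 0.23 for MBD2. Between the days in WT cells DNMT1 was -0.47 to 0.54, TET2 -0.48 to 0.047, TET3 -0.18 to 0.26, MBD2 -0.016 to 0.34 and MBD4 -0.13 to 0.10, TET2 in KO cells was -0.28 to 0.21, and MBD4 at D6 was -0.10 to 0.13. In BAZ1B, DNMT1 was -0.017 to 0.014 at D0, -0.00011 to 0.023 at D6 and -0.0013 to 0.034 for the difference, and UHRF1 at D6 was -0.041 to 0.072. DNMT3B was -0.11 to 0.49 for the difference, -0.29 to 0.031 between the days in WT and -0.25 to 0.33 in KO cells, MBD4 -0.067 to 0.030 for the difference and TET2 -0.10 to 0.093 between the days in KO cells.

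Counts over all genes, higher and lower, moved as follows. In H2A.X at D0 they were 2434 and 2217, and 1302 and 1242 with the correction and 55 and 22 without WT number 2. At D6 they were 2940 and 2761, and 1290 and 1168 with the correction, 1751 and 1542 with block and correction, 2076 and 1655 with only the 2 groups and 647 and 621 without WT number 2. The difference of the effects had 40 and 137, and 272 and 383 with DESeq2, 456 and 551 without the filter, 211 and 341 with the block, 104 and 164 with the correction, 285 and 335 with both and 0 and 2 without WT number 2. The days in WT cells had 111 and 154, and 437 and 610 with DESeq2, 597 and 674 without the filter, 583 and 544 with the block, 368 and 497 with block and correction and 256 and 247 with only the 2 groups. In BAZ1B at D0 there were 173 and 366, and 478 and 723 without the filter. The difference of the BAZ1B effects had 219 and 124, and 458 and 251 with DESeq2, 608 and 379 without the filter, 426 and 292 with the block, 443 and 327 with block and correction and 171 and 163 with upper-quartile scaling, which moved the median of all genes by -0.11 in H2A.X at D6.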
